A study of Mus musculus with 4 samples.

Results

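The genes described here are 10 genes of the Notch pathway, chosen by name and not by their values: the receptors *Notch1*, *Notch2* and *Notch3*, the ligands *Dll1*, *Jag1* and *Jag2*, the nuclear partner *Rbpj*, and the target genes *Hes1*, *Hey1* and *Heyl*. All 10 were among the 32285 genes of the count tables, and all 10 had unique molecular identifiers (UMIs, each a captured RNA molecule) in the kept cells, 140250 UMIs of 239582766 in all. A Notch receptor is cut when a neighboring cell presents a ligand, and its intracellular part moves to the nucleus, where it joins the DNA-binding protein Rbpj to switch on target genes of the Hes and Hey families of repressors. In skeletal muscle this pathway is best known for holding muscle stem cells (MuSCs) in quiescence, and it is turned down as their progeny differentiate.

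Single cell RNA-sequencing had been performed on tdTomato+ cells sorted from skeletal muscle of C57BL/6J mice aged 3 to 4 months, 14 days after tamoxifen, in 2 control and 2 α-cdKO samples. Each sample was a pool of 2 littermates. Control mice carried the *Pax7*-driven CreERT2 and the Rosa26-tdTomato reporter without floxed α-catenin alleles, and α-cdKO mice carried in addition homozygous floxed alleles of *Ctnna1* and *Ctnna3*, so that both genotypes had received tamoxifen and the recombinase acted only in *Pax7*-expressing cells. The question put to these data was how the levels of the Notch genes differ between quiescent, activated, cycling and differentiating MuSCs, and whether they differ between genotypes.

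The samples held 46099310 to 74921651 UMIs, and 28790 of 31254 barcodes were kept, with median depths of 6452.5 to 8075 UMIs per cell. Among kept cells, 202 had a barcode that also occurred in another sample. *Ctnna1* had 91.1 and 74.7 CPM (UMIs of a gene per 1000000 UMIs of the cells summed) in myogenic cells of the controls and 79.3 and 75.6 CPM in the α-cdKO samples, and *Ctnna3* had at most 7 UMIs in any sample. UMIs are read near the 3′ end of a transcript, so they do not check a deletion elsewhere in these genes, and the position of the floxed exons was not given in the sources used here.

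Myogenic cells fell into states by clustering from which the Notch genes were withheld. *Myog*-positive cells were those with at least 2 UMIs of *Myog*, the transcription factor of terminal myogenic commitment, and numbered 617 of 27172 myogenic cells. Of the rest, 4275 were quiescent-like, 20547 activated-like and 631 cycling-like. *Pax7*, the transcription factor of MuSCs, averaged 178 ± 36.7 CPM (SD, n = 4) in quiescent-like and 67.9 ± 28.8 CPM in activated-like cells, and *Myod1*, induced on activation, averaged 101.2 ± 19.8 and 667 ± 172 CPM in the same order. The quiescent-like cluster raised 4 of its 7 markers, and its leading genes were the early response genes *Fos* and *Jun* and the heat-shock gene *Hspa1a*. The activated-like cells formed a cluster of 12009 cells led by the chemokine genes *Cxcl3* and *Cxcl2* and a cluster of 8538 cells led by heat-shock genes such as *Dnaja4*, and the latter raised only 3 markers of activation, 2 of which, *Hspe1* and *Hspd1*, are themselves chaperone genes, with a mean log2 fold of 0.13 over the marker list. *Pax7* averaged 38.0 ± 21.7 CPM in the chemokine-led and 104 ± 38.9 CPM in the heat-shock-led cluster, and *Myod1* 861 ± 237 and 432 ± 91.7 CPM, so the name of the latter cluster rests on weak support. The rarer states held few cells in the controls, with 30 cycling-like and 52 *Myog*-positive cells in control replicate 1, and 82 and 103 in control replicate 2. Differences between states are given without a test, because the states were cut from the same cells. CPM are levels relative to all UMIs of a state in a sample, so they compare samples and states for 1 gene and are not used here to rank genes against each other.

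The Notch genes did not move as a block across states. *Hes1*, *Hey1* and *Dll1* were at least 2-fold higher in quiescent-like than in activated-like cells in all 4 samples, *Rbpj* was lower in all 4, and the 3 receptors had mean log2 ratios of 0.17 to 0.55. Of the 9 members with at least 10 CPM in either state, 7 were higher in quiescent-like cells in all 4 samples, which held for 44.5% of all 6717 such genes, and 1 was lower, which held for 40.6%. At least 2-fold higher in all 4 were 3 members, against 3.93% of all genes, and at least 2-fold lower were 0, against 6.86%. The median log2 ratio was 0.42 over the members and 0.04 over all such genes. In cycling-like cells, set against activated-like cells, 5 of 9 members were higher in all 4 samples (59.1% of all 7546 genes) and 3 were lower (18.6%). *Dll1* and *Hes1* were at least 2-fold higher there in all 4 (15.6% of genes), and 0 members were at least 2-fold lower (1.43%). In *Myog*-positive cells 2 of 9 members were higher than in activated-like cells in all 4 samples (50.7% of all 6946 genes) and 4 were lower (27.4%). *Notch3* and *Heyl* were at least 2-fold lower there in all 4, as were 4.85% of genes, and *Dll1* was at least 2-fold higher, as were 12.6%. The plot of levels by state shows every sample.

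**Figure D1:**
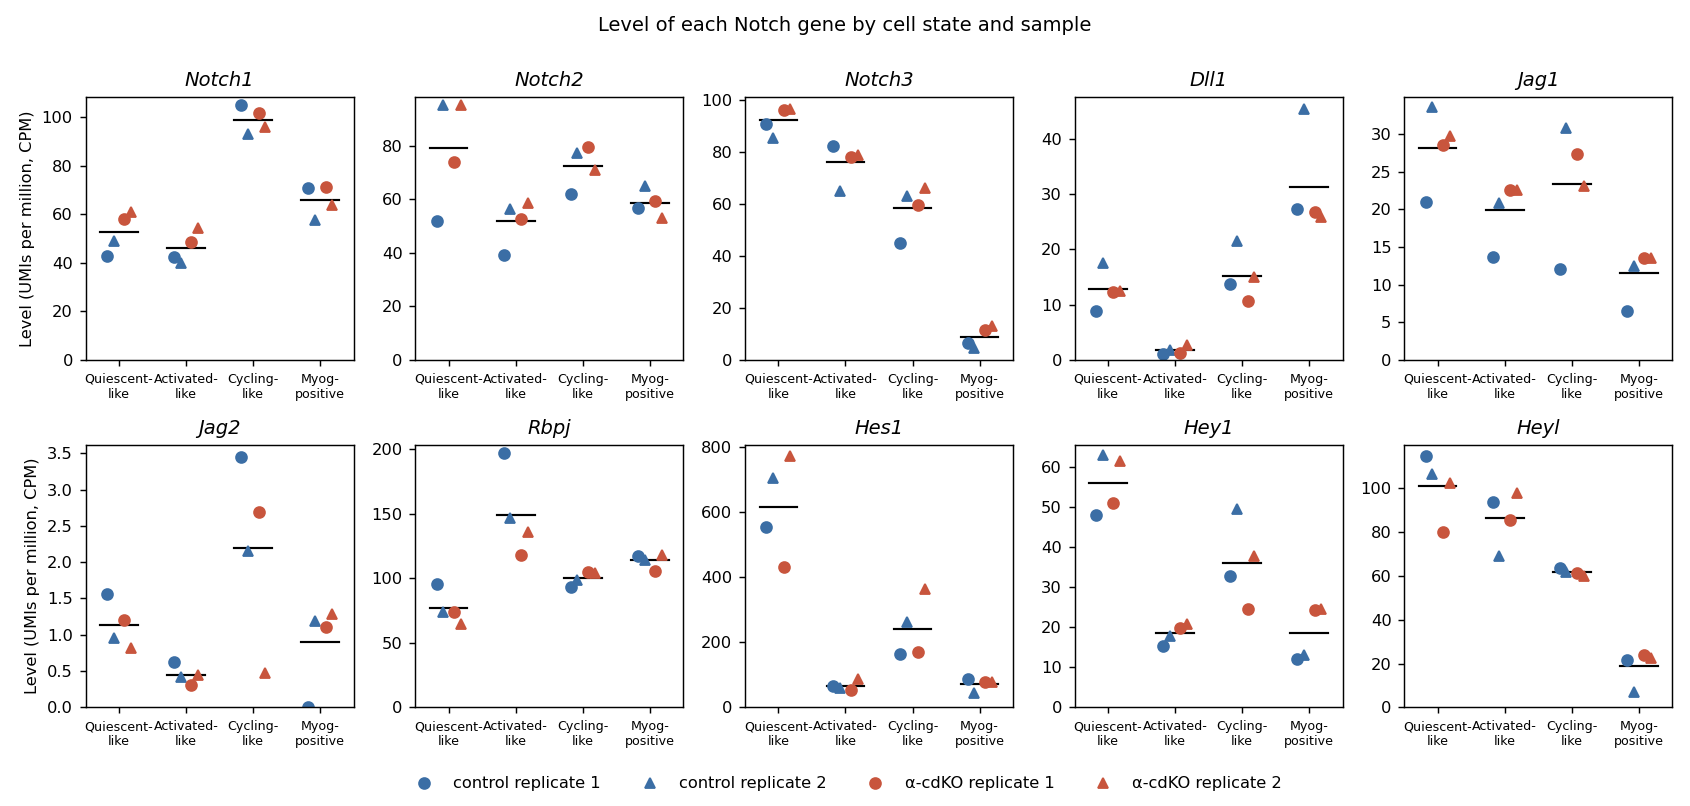
Level of each Notch gene (CPM, vertical axes from 0, a scale of its own for each gene) in quiescent-like, activated-like, cycling-like and Myog-positive cells. Each point is a sample, blue for control and red for α-cdKO, and the black line is the mean of the 4 samples. *Hes1* stood at 431 to 771 CPM in quiescent-like cells and under 88 CPM in activated-like cells, while *Notch3* stood at 65.0 CPM or more in activated-like cells and under 13 CPM in Myog-positive cells.

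The promoters of *Notch3* and *Dll1* are shown, because these genes lay at opposite ends in *Myog*-positive cells. *Dll1* has 2 windows in the table, and the one with a match is printed, while the other, whose 250 bases before the start are chr17:15375824-15376073, holds no match. Each run is the 250 bases before the gene's start on the gene's own strand, from RefSeq on GRCm38.p6, and capitals mark CAGCTG, an E-box of the kind that myogenic factors bind, chosen after the values were seen.
Notch3, chr17:32166891-32167140, minus strand: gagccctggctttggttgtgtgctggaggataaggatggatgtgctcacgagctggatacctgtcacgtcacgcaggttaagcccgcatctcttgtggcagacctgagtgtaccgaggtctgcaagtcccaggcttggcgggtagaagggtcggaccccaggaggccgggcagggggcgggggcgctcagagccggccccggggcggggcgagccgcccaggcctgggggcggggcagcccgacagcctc
Dll1, chr17:15376933-15377182, minus strand: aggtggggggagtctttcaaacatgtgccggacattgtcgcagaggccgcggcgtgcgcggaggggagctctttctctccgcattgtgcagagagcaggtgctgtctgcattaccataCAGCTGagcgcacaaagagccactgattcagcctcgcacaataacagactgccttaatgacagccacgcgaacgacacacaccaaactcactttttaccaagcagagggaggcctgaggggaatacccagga
The match in this *Dll1* window starts 132 bases before the gene's start. On both strands of the 300 bases from 250 before to 50 after the start, CAGCTG was held by 16.3% of all 32851 promoter windows and by 2 of 9 windows of the 7 members with an entry (*Dll1* and *Jag1*). GTGGGAA, the core sequence bound by Rbpj, was held by 6.38% of all windows and by 0 of the 9, which says only that these letters are not in those windows. The target genes *Hes1*, *Hey1* and *Heyl* had no window, so neither sequence was looked for in their promoters.

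Of the receptors, *Notch3* (ENSMUSG00000038146, chromosome 17 from 32120820 to 32166852, GRCm38) separated the states most. In quiescent-like cells it was at 90.7 and 85.3 CPM in the controls and 95.9 and 96.3 CPM in the α-cdKO samples. In activated-like cells it was at 82.0, 65.0, 77.8 and 78.9 CPM in the same order. All 4 samples were thus higher in quiescent-like cells, by a log2 ratio of 0.27 ± 0.10 (SD, n = 4, with 5 CPM added to each level). In *Myog*-positive cells *Notch3* was at 6.54, 4.77, 11.6 and 12.9 CPM, which rested on 6, 8, 42 and 40 UMIs. The log2 ratio of *Myog*-positive to activated-like cells was −2.57 ± 0.35, and no sample of the *Myog*-positive cells overlapped any other of the 4 states. Cycling-like cells lay between, at 44.8 to 65.9 CPM, and their range overlapped that of activated-like cells.

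*Notch1* (ENSMUSG00000026923, chromosome 2 from 26457903 to 26516663) took another course and, of the 4 states, was highest in cycling-like cells. It was at 105 and 93.2 CPM there in the controls and at 102 and 96.1 CPM in the α-cdKO samples. In activated-like cells it was at 42.5, 40.0, 48.5 and 54.3 CPM, so that the log2 ratio of cycling-like to activated-like cells was 1.03 ± 0.19. Cycling-like cells were also deeper, with a median of 15798 UMIs against 7498 in activated-like cells, and a median gene there was higher by 0.45 on the log2 scale. *Myog*-positive cells had 57.9 to 71.1 CPM of *Notch1*, overlapping the quiescent-like range of 42.9 to 61.2 CPM. *Notch1* and *Notch3* thus differed in order, with *Myog*-positive cells second of the 4 states for the former and last for the latter.

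*Notch2* (ENSMUSG00000027878, chromosome 3 from 98013527 to 98150361) was at 52.1 and 95.2 CPM in quiescent-like cells of the controls and 73.9 and 95.4 CPM in the α-cdKO samples. In each sample this exceeded the activated-like level of 39.2, 56.3, 52.8 and 58.8 CPM, with a log2 ratio of 0.55 ± 0.16. Control replicate 1 was the lowest sample in both states. The ranges of neighboring states overlapped throughout the order from quiescent-like through cycling-like and *Myog*-positive to activated-like cells.

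The ligand *Dll1* (ENSMUSG00000014773, chromosome 17 from 15367354 to 15376872), a Delta-type ligand known to be displayed by differentiating myogenic cells, was highest in *Myog*-positive cells. It was at 27.2 and 45.4 CPM there in the controls and at 26.8 and 25.8 CPM in the α-cdKO samples, from 25, 76, 97 and 80 UMIs. In activated-like cells it was at 1.12, 1.87, 1.25 and 2.67 CPM, and in quiescent-like cells at 8.82, 17.6, 12.2 and 12.5 CPM. The log2 ratio to activated-like cells was 2.41 ± 0.36 for *Myog*-positive and 1.39 ± 0.26 for quiescent-like cells. The lowest *Myog*-positive sample was above the highest sample of every other state, and the quiescent-like and cycling-like ranges overlapped. *Dll1* and *Notch3* therefore ran in opposite directions between activated-like and *Myog*-positive cells, as the plot of ratios shows.

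*Jag1* (ENSMUSG00000027276, chromosome 2 from 137081456 to 137116644), a Jagged-type ligand, was at 21.0 and 33.6 CPM in quiescent-like cells of the controls and 28.5 and 29.8 CPM in the α-cdKO samples. It was higher there than in activated-like cells in 4 of 4 samples, by a log2 ratio of 0.42 ± 0.14. In *Myog*-positive cells it was at 6.54 to 13.6 CPM, below the activated-like range of 13.7 to 22.6 CPM. *Jag2* (ENSMUSG00000002799, chromosome 12 from 112907819 to 112929776) was at most 3.45 CPM in any of the 4 states, with 1 to 16 UMIs per sample in cycling-like and 0 to 4 in *Myog*-positive cells, and no order was read from it.

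**Figure D2:**
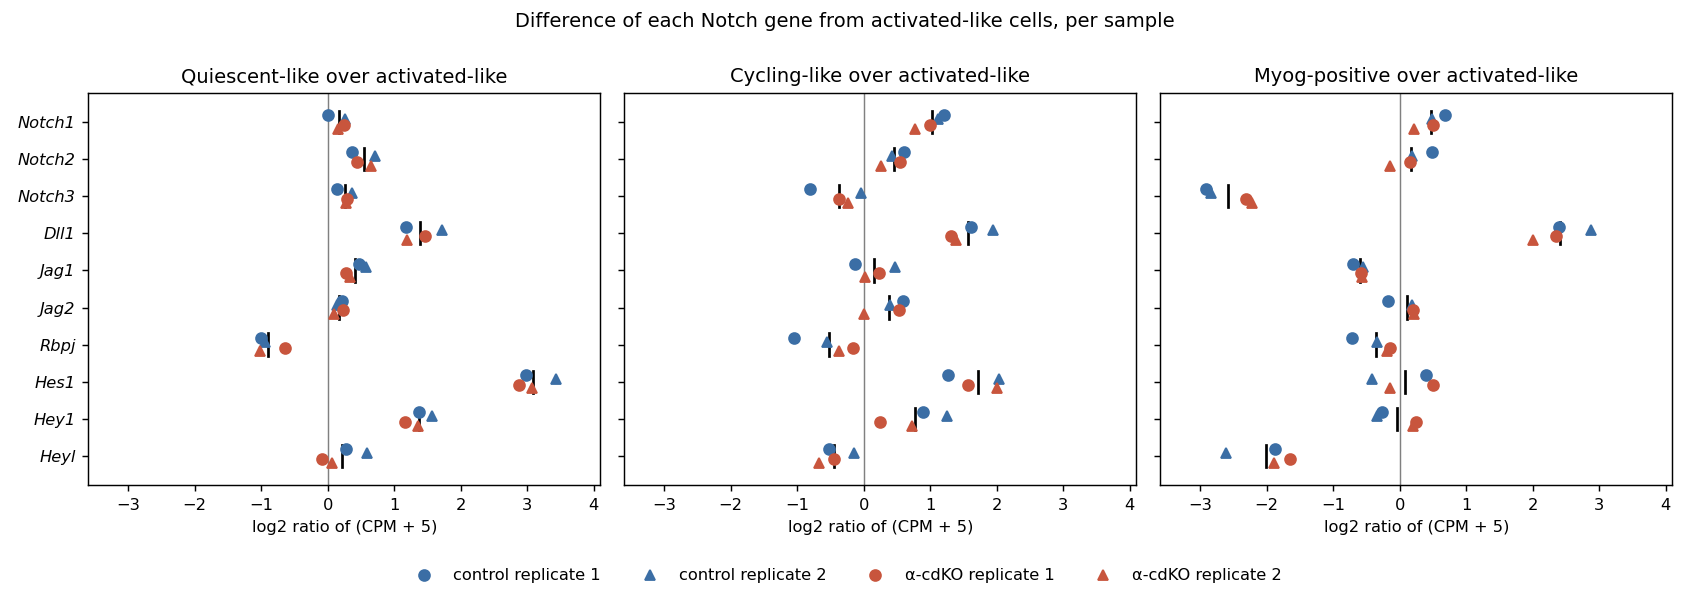
Difference of each Notch gene from activated-like cells (horizontal axes, log2 ratio of CPM with 5 CPM added) for quiescent-like, cycling-like and Myog-positive cells. Points are samples, black bars are means of the 4 samples, and 0 is the activated-like level. *Hes1* lay 2.88 or more above 0 in quiescent-like cells, and in Myog-positive cells *Dll1* lay 2.01 or more above it while *Notch3* and *Heyl* lay 1.65 or more below it.

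*Rbpj* (ENSMUSG00000039191, chromosome 5 from 53466152 to 53657362), the DNA-binding partner on which the canonical pathway depends, had its lowest mean in quiescent-like cells. It was at 95.6 and 73.8 CPM there in the controls and at 73.9 and 64.8 CPM in the α-cdKO samples. In activated-like cells it was at 197, 147, 118 and 136 CPM. Every activated-like sample exceeded every quiescent-like sample, and the log2 ratio of quiescent-like to activated-like cells was −0.90 ± 0.18. This was the reverse of the direction of *Hes1* and *Hey1* in the same cells. In *Myog*-positive cells *Rbpj* was at 106 to 118 CPM and in cycling-like cells at 93.0 to 105 CPM, and the latter range overlapped that of quiescent-like cells.

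Among the targets *Hes1* (ENSMUSG00000022528, chromosome 16 from 30064384 to 30067796) showed the widest spread. In quiescent-like cells it was at 556 and 704 CPM in the controls and 431 and 771 CPM in the α-cdKO samples. In activated-like cells it was at 65.8, 60.7, 54.1 and 87.1 CPM, so the log2 ratio was 3.09 ± 0.24, a mean of 8.54-fold. *Myog*-positive cells were at 44.2 to 88.3 CPM, overlapping the activated-like cells. Cycling-like cells were at 165 to 364 CPM, above both and below the quiescent-like cells in every sample. *Hes1* was also among the leading genes of the quiescent-like cluster although it had no part in defining it.

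*Hey1* (ENSMUSG00000040289, chromosome 3 from 8663359 to 8667256) followed *Hes1* at a smaller amplitude, at 48.0 and 63.0 CPM in quiescent-like cells of the controls and 51.0 and 61.4 CPM in the α-cdKO samples. Activated-like cells were at 15.4, 17.8, 19.9 and 20.8 CPM, a log2 ratio of 1.37 ± 0.16. *Heyl* (ENSMUSG00000032744, chromosome 4 from 123233556 to 123249875) did not follow it. It was at 115 and 107 CPM in quiescent-like cells of the controls and 80.1 and 103 CPM in the α-cdKO samples, against 93.7, 69.0, 85.5 and 97.8 CPM in activated-like cells. The ratio was above 0 in 3 of 4 samples, with a mean of 0.21 ± 0.30, so the difference was within the spread between samples. In *Myog*-positive cells *Heyl* was at 21.8, 7.16, 23.8 and 22.6 CPM, and its ratio to activated-like cells was −2.01 ± 0.41. *Heyl* thus had the order of *Notch3* over the 4 states, and *Hey1* that of *Hes1*, although *Hey1* averaged 18.5 CPM in both *Myog*-positive and activated-like cells.

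The 2 activated-like clusters placed these patterns on a finer scale. *Hes1* was in ascending order from the chemokine-led cluster through the heat-shock-led cluster to quiescent-like cells in 4 of 4 samples, from 33.0 to 42.9 CPM through 69.2 to 130 CPM. *Hey1* was in the same order in 4 of 4 samples, at 8.09 to 10.5 and then 24.6 to 33.5 CPM. *Dll1* was too, at 0.374 to 1.37 and 2.01 to 3.92 CPM. *Notch1* was in this order in 1 of 4 samples, control replicate 2. In the other samples its heat-shock-led level of 51.4, 59.7 and 64.2 CPM was above the quiescent-like level of 42.9, 58.2 and 61.2 CPM. Over the chemokine-led cluster, *Notch1* had a log2 ratio of 0.47 ± 0.06 in the heat-shock-led cluster and 0.40 ± 0.11 in quiescent-like cells. The heat-shock-led cluster exceeded the chemokine-led one by a log2 ratio of 1.27 ± 0.43 for *Hes1* and 1.27 ± 0.09 for *Hey1*, and by 0.21 ± 0.07 for *Notch3*, 0.09 ± 0.14 for *Heyl* and 0.08 ± 0.05 for *Rbpj*. Set against the chemokine-led cluster alone, quiescent-like cells had log2 ratios of 3.83 ± 0.45 for *Hes1*, 2.08 ± 0.15 for *Hey1*, 1.59 ± 0.25 for *Dll1*, 0.37 ± 0.12 for *Notch3* and −0.86 ± 0.20 for *Rbpj*. *Fos* was at 60.3 ± 21.5 CPM in the chemokine-led and 602 ± 225 CPM in the heat-shock-led cluster, and at 3623 ± 847 CPM in quiescent-like cells, so the early response genes moved with the same order, and their part in it was not tested.

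**Figure D3:**
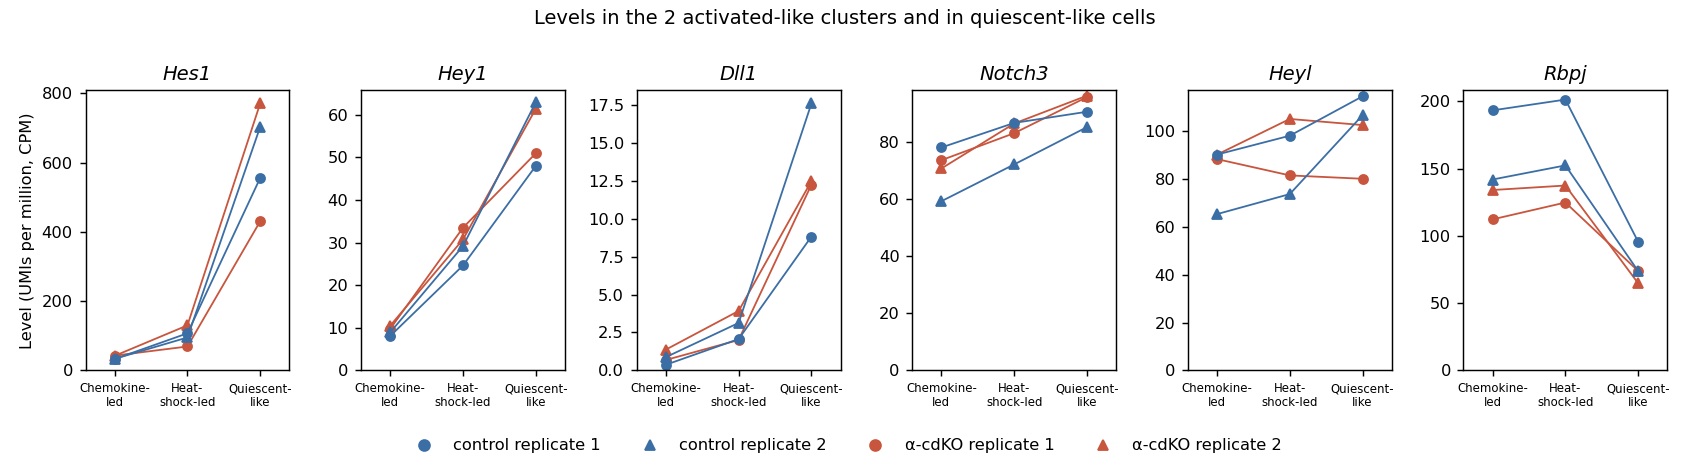
Levels of 6 Notch genes (CPM, vertical axes from 0) in the activated-like clusters led by chemokine and by heat-shock genes and in quiescent-like cells. Each line joins the values of a sample, blue for control and red for α-cdKO. The lines of *Hes1*, *Hey1* and *Notch3* climb in all 4 samples, and *Rbpj* ends at 64.8 to 95.6 CPM in quiescent-like cells.

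Within quiescent-like cells *Hes1* and *Hey1* were higher in cells with more *Fos* and *Jun*. The cells of each sample were thinned to 2000 UMIs and split at the median of summed *Fos* and *Jun* UMIs, which was 10 UMIs in each control sample, 4 in α-cdKO replicate 1 and 8 in replicate 2. *Hes1* was at 432 and 516 CPM below and 789 and 949 CPM above the median in the controls. In the α-cdKO samples it went from 282 and 546 to 669 and 1139.7 CPM, and the log2 ratio was 1.01 ± 0.17 over the 4 samples. *Hey1* had a log2 ratio of 0.81 ± 0.24, *Jag1* one of 0.48 ± 0.14 and *Notch1* one of 0.42 ± 0.32, each above 0 in 4 of 4 samples. *Rbpj* had −0.08 ± 0.12 and *Notch3* −0.11 ± 0.28, no more than the spread between samples. The split is a cut through a range and not a cell type. With the split made on *Egr1* and *Atf3*, *Hes1* had 0.77 ± 0.28 and *Hey1* 0.57 ± 0.54. *Jag1* then had 0.35 ± 0.61 and *Notch1* 0.09 ± 0.33, each above 0 in 3 of 4 samples.

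**Figure D4:**
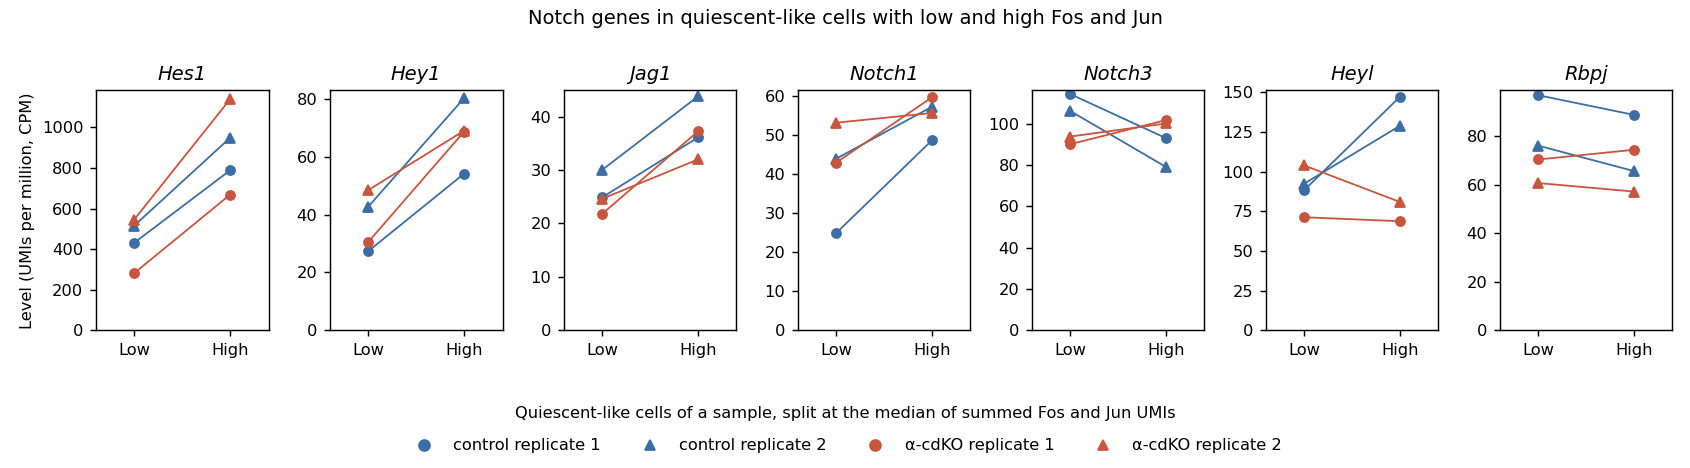
Level of 7 Notch genes (CPM, vertical axes from 0) in quiescent-like cells at or below (Low) and above (High) the sample's median of summed Fos and Jun UMIs, all cells thinned to 2000 UMIs. Each line joins the values of a sample, blue for control and red for α-cdKO. *Hes1*, *Hey1*, *Jag1* and *Notch1* are higher on the High side in all 4 samples, while *Heyl* is higher there in the controls and lower in the α-cdKO samples.

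The share of cells with a UMI gave the same picture at equal depth. With each cell thinned to 2000 UMIs, *Hes1* had a UMI in 46.2% of 4142 quiescent-like cells (exact Clopper-Pearson 95% interval 44.7 to 47.7) and in 8.70% of 20412 activated-like cells (8.32 to 9.10). Before thinning the shares were 67.4% and 22.6%, at median depths of 5860 and 7498 UMIs. *Notch3* had a UMI in 16.4% of quiescent-like cells (15.3 to 17.6), 12.9% of activated-like cells and 1.34% of 598 *Myog*-positive cells (0.579 to 2.62). *Heyl* had a UMI in 15.9%, 14.4% and 3.34% in the same order, and *Dll1* in 2.03%, 0.269% and 6.52%. Before thinning these shares were 38.7%, 40.2% and 9.08% for *Notch3*, 37.8%, 39.2% and 15.4% for *Heyl*, and 5.68%, 1.0999% and 24.5% for *Dll1*, with a median of 13972 UMIs in *Myog*-positive cells. Left out as too shallow were 133 quiescent-like, 135 activated-like and 19 *Myog*-positive cells. Intervals cover counting error only.

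These shares have to be read against cells that should lack the gene. A mixed cluster of 137 cells led by the granulocyte genes *S100a9* and *S100a8*, with the matrix gene *Mgp* among its leading genes, had a median of 7810 UMIs and kept 128 cells after thinning. Of these, 5.47% had a *Notch3* UMI (2.23 to 10.9) and 4.69% a *Heyl* UMI, so the *Myog*-positive shares of both genes were at or below that background and are not read as expression. For *Dll1* and *Hey1* the count was 0 of 128 cells, for which the upper limit is 2.34%. *Notch1* had a UMI in 9.38% of the mixed cells (4.94 to 15.8), *Notch2* in 15.6% and *Rbpj* in 17.2%, so the quiescent-like shares of 8.84%, 14.9% and 12.7% were no higher than that background. In 915 mature-muscle-like cells the shares were 0.874%, 1.42% and 3.93%, so these genes were not at a like share in every cell type. *Hes1*, at 25.8% of the mixed cells and 45.9% of 170 endothelial-like cells, was not particular to MuSCs. *Notch3* and *Heyl*, which pericytes and smooth muscle cells are known to express, had a UMI in 14.1% and 9.41% of the endothelial-like cells.

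Markers of vascular cells were low in quiescent-like cells apart from *Acta2* and *Pecam1*, the latter at a mean of 20.8 CPM. Of the mural markers, *Rgs5* averaged 4.29 CPM in quiescent-like and 1574 CPM in endothelial-like cells, *Myh11* was at 0 in all quiescent-like samples, and the 6 markers summed to 170 to 365 CPM, of which *Acta2*, also an early muscle gene, made up 154 to 356 CPM. The 7 endothelial markers summed to 15.3 to 31.5 CPM in quiescent-like cells and to 2238 to 3502 CPM in endothelial-like cells. *Cdh5* and *Tie1* were at or near 0 in quiescent-like cells, at a mean of 0.0294 and 0 CPM.

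The other myogenic cells with muscle transcripts had higher *Notch3* and *Heyl* levels than *Myog*-positive cells. In 375 cells of a cluster led by the mature muscle genes *Tnnt3* and *Tnnc2*, *Notch3* was at 63.0, 60.2, 51.9 and 85.2 CPM and *Heyl* at 36.8 to 90.5 CPM. *Pax7* averaged 51.3 ± 25.2 CPM and *Myod1* 621 ± 173 CPM in them, near the activated-like averages, and *Myog* was at 0 to 40.1 CPM, so these genes do not place the cluster on the path of differentiation and it is called here by its leading genes. In 727 differentiated-like cells under the *Myog* threshold *Notch3* was at 23.2 to 36.5 CPM, and *Heyl* at 44.4 to 82.4 CPM. *Notch1* was at 54.4 and 73.7 CPM there in the controls and 111 and 81.3 CPM in the α-cdKO samples. The value of α-cdKO replicate 1 thus exceeded its cycling-like level of 102 CPM. The mature-muscle-like cells that were set aside numbered 791 in control replicate 2 and 109 to 280 in the other samples.

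Of the wider Notch list, 48 genes chosen with earlier results known, 28 had at least 10 CPM in quiescent-like or activated-like cells. Of these, 17 (60.7%) were higher in quiescent-like cells in all 4 samples and 7 (25%) lower, against 44.5% and 40.6% of all 6717 genes, and the median log2 ratio was 0.46 against 0.04 over all genes. At least 2-fold higher in all 4 were 2 of the 28 (7.14%, against 3.93% of all genes). All 5 collagen and calcitonin receptor genes known to depend on Notch in MuSCs (*Calcr*, *Col5a1*, *Col5a3*, *Col6a1* and *Col6a2*) were higher, with a median of 0.60, and 0 of them were at least 2-fold higher in all 4. Of the cleavage and processing genes 6 of 9 were higher and 2 lower, and of the nuclear partners 1 of 5 was higher and 3 lower, to be read against the same shares of all genes. *Dtx4*, an E3 ubiquitin ligase of the Deltex family, averaged 105 ± 8.84 CPM in quiescent-like and 39.8 ± 5.95 CPM in activated-like cells. *Adam10*, which makes the first cut of an activated receptor, averaged 30.9 ± 4.30 and 15.03 ± 1.497 CPM, and *Aph1a*, a subunit of the γ-secretase that makes the next cut, 30.7 ± 2.22 and 14.7 ± 0.736 CPM. The coactivator *Maml1* went the other way at 11.0 ± 1.09 and 24.3 ± 2.42 CPM, as did *Furin*, the protease that processes the receptor precursor, at 24.0 ± 4.12 and 70.1 ± 10.1 CPM. *Hes6*, a Hes-family gene known to favor differentiation, averaged 20.4 ± 5.32 CPM in quiescent-like, 2.48 ± 0.630 CPM in activated-like, 24.5 ± 12.6 CPM in cycling-like and 91.8 ± 14.8 CPM in *Myog*-positive cells, and its means had the order of those of *Dll1*. *Poglut1*, which glycosylates the receptors, averaged 11.1 ± 1.98 CPM in quiescent-like and 4.15 ± 0.433 CPM in activated-like cells.

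The genes most like 4 of the members were found over the 16 sums of 4 samples by 4 states, among 6760 genes, by Pearson's r of log2 CPM. The sums of a sample share a library, and most of the variation lies between states, so these values are descriptions. *Hes1* was most like *Gas1* (r = 0.964), *Gng11*, *Fibin*, *Spry1* and *Ebf3*. Of these, *Gas1* and *Spry1* are markers by which the quiescent-like cluster was named, so their likeness restates that state. *Notch3* was most like *Calcr* (r = 0.988), then *Lrp1*, *Abi3bp*, *Lhfp* and *Lin7a*. *Heyl* was most like *Tenm4* (r = 0.983), *Bcl2*, *Ltbp1*, *Rarres2* and *Abi3bp*, so *Abi3bp* was on the lists of both *Notch3* and *Heyl*. *Rbpj* was most like *Rab6a* (r = 0.941), *Ets2*, *Nop14*, *Aff4* and *Srpr*.

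Between genotypes no member was called in any state. UMIs summed per sample were tested with edgeR's quasi-likelihood test, and 0 of 10 members passed in all myogenic cells, where 0.171% of 14635 genes did. It was 0 of 9 in quiescent-like cells (0.0867% of all genes), 0 of 10 in activated-like cells (0.329%), 0 of 9 in cycling-like cells (0.0336%) and 0 of 9 in *Myog*-positive cells (0.0114%), *Jag2* being too low to be tested in 3 of these. Without adjustment 1, 1, 2, 0 and 2 members had p under 0.05 in the same order. DESeq2 called 0 members in each state. None of the wider list was called either, of 33 to 43 genes tested. Each genotype had 2 pools, so these p-values set the genotype difference against variation between pools, estimated with information shared over genes. With so few pools, a lack of calls does not show that the levels were equal.

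*Notch1* did not overlap between genotypes in all myogenic, quiescent-like and activated-like cells, and *Rbpj* and *Jag1* also did not overlap in 3 of the 5 sets of cells each. In all myogenic cells it was at 44.1 and 44.9 CPM in the controls and 58.8 and 57.4 CPM in the α-cdKO samples, and the log2 difference of α-cdKO from control was 0.38 (standard error, SE, 0.11, edgeR adjusted p = 0.603). In quiescent-like cells it was at 42.9 and 49.1 against 58.2 and 61.2 CPM, and the log2 difference of α-cdKO from control was 0.41 (SE 0.15, edgeR adjusted p = 0.544). In activated-like cells the same difference was 0.35 (SE 0.14, edgeR adjusted p = 0.647). Both α-cdKO samples exceeded both controls in these 3 sets, and the genotypes overlapped for *Notch1* in cycling-like and *Myog*-positive cells. Groups did not overlap for 3 of 10 members in all myogenic cells and 3 of 9 in quiescent-like cells, as for 38.1% and 40.6% of all genes.

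*Rbpj* in activated-like cells was at 197 and 147 CPM in the controls and 118 and 136 CPM in the α-cdKO samples, and the log2 difference was −0.40 (SE 0.16, edgeR adjusted p = 0.647). Control replicate 1 lay apart from the others here. *Rbpj* was also lower in both α-cdKO samples in all myogenic cells, at 181 and 131 against 112 and 125 CPM. In cycling-like cells it was higher in both, at 93.0 and 98.9 CPM in the controls and 105 and 104 CPM in the α-cdKO samples. Groups did not overlap for 4 of 10 members in activated-like cells (37.3% of all genes) and 2 of 9 in cycling-like cells (42% of all genes). *Hes1* differed more between samples of a genotype than between genotypes. Its log2 difference in quiescent-like cells was −0.03 (SE 0.26, edgeR adjusted p = 0.978), while *Fos* and *Jun* had −0.39 and −0.63 in the same cells with edgeR adjusted p of 0.639 and 0.419.

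In *Myog*-positive cells 5 of 9 members did not overlap between genotypes, as for 35.2% of all genes, and 4 of the 5 were higher in the α-cdKO samples. *Hey1* was at 11.99 and 13.1 CPM in the controls and 24.3 and 24.6 CPM in the α-cdKO samples, and the log2 difference of α-cdKO from control was 0.97 (SE 0.29, edgeR adjusted p = 0.752). *Notch3* had 1.18 (SE 0.40, edgeR adjusted p = 0.844), at the background share given above. *Heyl* had 0.85 (SE 0.42, edgeR adjusted p = 0.887), with the controls far apart at 21.8 and 7.16 CPM from 20 and 12 UMIs. Without control replicate 1 the *Heyl* value was 1.68 with an edgeR adjusted p of 0.00601, so that 1 member was then called, and 228 genes in all in place of 1. *Dll1* was at 27.2 and 45.4 CPM in the controls and 26.8 and 25.8 CPM in the α-cdKO samples, with −0.49 (SE 0.28, edgeR adjusted p = 0.912).

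**Figure D5:**
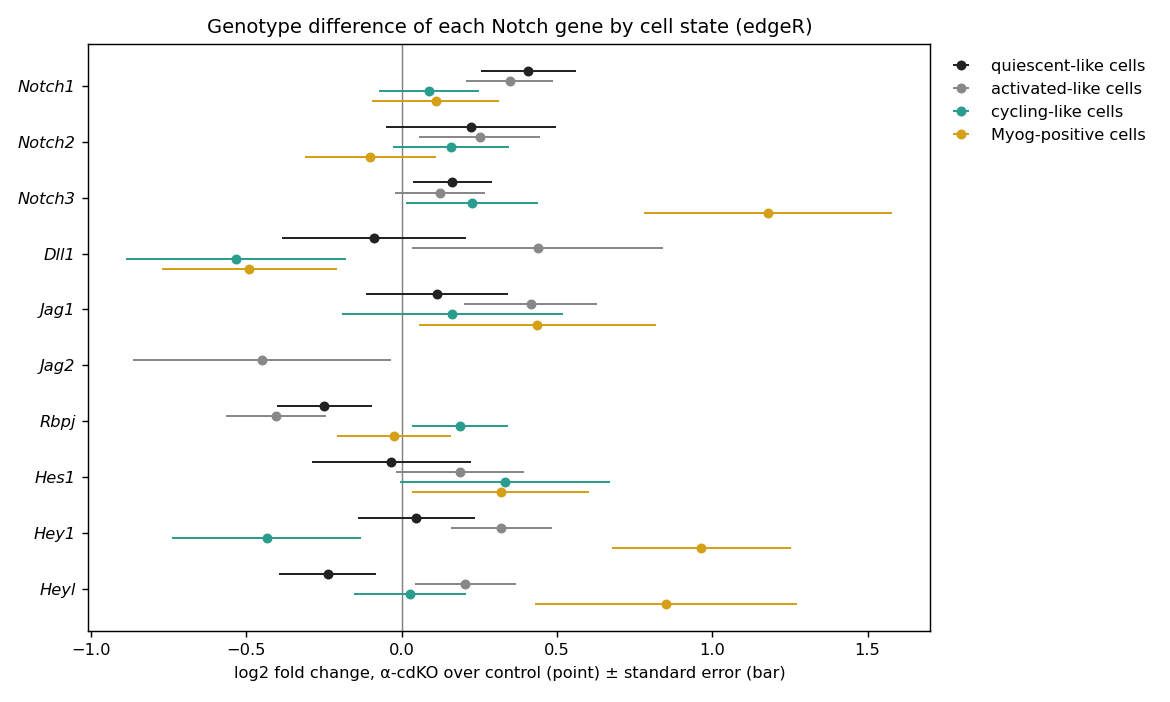
Log2 fold change of each Notch gene between genotypes (horizontal axis, α-cdKO over control, edgeR) in 4 cell states, with bars of 1 standard error from 2 samples per genotype. *Jag2* was tested only in activated-like cells among these. *Notch1* lay at 0.41 in quiescent-like and 0.35 in activated-like cells, *Notch3*, *Hey1* and *Heyl* lay at 0.85 to 1.18 in Myog-positive cells, and none was called.

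The genotype difference itself was compared between activated-like and quiescent-like cells with an interaction term in edgeR, in which each sample was its own term. None of the 10 members was called (0.0144% of 13851 genes were). *Heyl* had the largest value among the target genes, 0.49 on the log2 scale toward activated-like cells (SE 0.16, edgeR adjusted p = 0.937), and *Notch1* had −0.03 (SE 0.17, edgeR adjusted p = 0.997). Genes on the same strand overlap *Notch1*, *Notch2* and *Jag2* in the annotation, and genes on the other strand overlap *Notch1*, *Notch3*, *Dll1* and *Rbpj*. Whether reads from introns were counted is not given in the sources used here. The same-strand overlap is a microRNA gene each for *Notch1* and *Jag2*, and unconfirmed transcripts (*Gm42819* and *Gm42820*) for *Notch2*. Part of the UMIs of *Notch2* may thus belong to same-strand transcripts. What transcripts of either strand add to the counts was not tested.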

How the data were processed

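The deposited counts are UMIs per gene and barcode that the authors made with Cell Ranger on GRCm38, as whole numbers without normalization, for barcodes called as cells. The members and lists were chosen with earlier results of these data known. The cell filter was that of the study: at least 1000 UMIs, at least 400 genes, and less than 15% of UMIs from the mitochondrial genome. Clustering used Seurat 5.3.0 (2000 variable genes without the Notch lists, 30 principal components, Louvain resolution 0.2) with an R implementation of the Harmony method, checked on simulated data. Clusters were named by markers raised at least 1.5-fold. Scrublet in scanpy 1.11.5 marked 0 to 4 cells per sample, so no doublets were removed except as an alternative, which took out the highest scores.

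Sums of UMIs per sample and state went into the quasi-likelihood test of edgeR 4.0.16 (TMM scaling after filterByExpr, Benjamini-Hochberg over all genes tested, threshold 0.05), with DESeq2 1.42.0 as an alternative. The test was tried on simulated data with known changes. The named genes are the 10 members, the catenin targets, class genes (*Pax7*, *Myog*, *Myod1*, *Fos* and *Jun*), up to 8 genes of the wider list with the largest quiescent-like to activated-like ratio, and 5 genes most like each of 4 members. A gene that this rule names is not reported here. Cluster leading genes, *Hspa1a*, the marker genes and the Notch-dependent genes were named after their values were seen. Alternatives covered cell filter, doublets, integration, resolution, seeds, pseudocount, *Myog* threshold, thinning, normalization, the test used, the replicate number as a block, and leaving out each sample. Gene positions came from GENCODE M21 (GRCm38). Scripts ran in R 4.3.3 and Python 3.11.15, with figures from matplotlib 3.10.9.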

Additional observations from a re-analysis of the deposited data

Results flagged for a closer look

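*Hey1* in *Myog*-positive cells relative to activated-like cells was below 0 in both controls (mean log2 ratio −0.30) and above 0 in both α-cdKO samples (0.22), and this difference between the genotypes was not tested. In the split of quiescent-like cells by *Fos* and *Jun*, *Heyl* was higher in cells with more *Fos* and *Jun* in both controls (mean log2 ratio 0.58) and lower in both α-cdKO samples (−0.20), which was not tested either. *Notch2* had the same signs, at 0.44 and −0.12, and *Notch3* the opposite ones, at −0.34 and 0.13, also untested. With the split made on *Egr1* and *Atf3*, *Heyl* was higher in 1 of 4 samples (0.02 ± 0.28), so its signs did not recur. Over the 4 samples *Notch2* then had −0.01 ± 0.13 and *Notch3* −0.10 ± 0.19.

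Barcodes that the cell filter removed also held UMIs of the Notch genes. *Notch1* was at 52.5 and 36.8 CPM there in the controls and 60.0 and 82.6 CPM in the α-cdKO samples. *Notch2* was at 36.4 and 85.9 against 104 and 107 CPM. *Notch3* was at 145 and 106 against 151 and 160 CPM, and *Heyl* at 72.7 and 70.8 against 86.5 and 92.3 CPM. Each value rested on 18 to 189 UMIs, and both α-cdKO samples were above both controls for these 4 of the 10 members, which was not tested. The share of all genes that did so in these barcodes was not computed, and in the kept cells 35.2% to 42% of all genes did not overlap between genotypes, so nothing is read from this count.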

How the results depend on the processing

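The count of members higher in quiescent-like than in activated-like cells in all samples was 8 with *Jag2* included, and 6 to 9 under the alternatives. Of 600 member ratios between states under the alternatives, 563 moved by no more than the spread between samples. Among ratios whose main value exceeded that spread, 1 changed sign: *Notch1* between quiescent-like and activated-like cells was −0.0112 without the Harmony correction. Smaller ratios crossed 0 too. *Hes1* (main value 0.08) and *Hey1* (−0.04) did so between *Myog*-positive and activated-like cells, and *Jag2* (0.06) between quiescent-like and *Myog*-positive cells. Members called between genotypes stayed at 0 under each alternative, except 1 in *Myog*-positive cells without control replicate 1, so that the range over samples left out was 0 to 1 there. Of 470 genotype values of members under the alternatives, 32 had another sign, 28 of them with a sample left out. The *Notch1* value was above 0 in 49 of 50, with adjusted p of 0.203 or more.

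The replicate number as a block called 0 members, and 14, 63, 38, 13 and 16 genes in all myogenic, quiescent-like, activated-like, cycling-like and *Myog*-positive cells, against 25, 10, 44, 3 and 1 without it. Deviations of same-numbered samples correlated at −0.22, 0.05, −0.17, −0.08 and 0.04, so the numbers were not used as pairs. The crossed pairing, added after the data were seen, called 179, 122, 115, 93 and 6 genes. DESeq2 called 115, 24, 105, 24 and 12 genes. With samples left out the counts were 0 to 57, 14 to 87, 11 to 181, 3 to 92 and 15 to 228, the cause was not tested, and without the filter on low counts 291, 373 and 257 genes were called in quiescent-like, activated-like and cycling-like cells and 41 for the interaction in place of 2.

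Depth limits *Jag2* in every state and *Notch3*, *Heyl* and *Dll1* in the rarer states. Thinning to 4000 UMIs raised the quiescent-like shares to 58.5% for *Hes1*, 28.6% for *Heyl* and 27.6% for *Notch3*. Adding 1 or 20 CPM in place of 5 moved the *Dll1* ratio of *Myog*-positive to activated-like cells to 3.56 or 1.22, and that of *Notch3* lay between −3.03 and −1.73 under all alternatives.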
